A study of Mus musculus with 30 samples.

Results

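The AP-1 genes described here encode the Fos proteins (Fos, Fosb, Fosl1 and Fosl2), the Jun proteins (Jun, Junb and Jund) and Atf3, and they were chosen by gene symbol. All 8 symbols had 1 row each in the count tables, among 55450 gene models in the tables of the time course and of regeneration and 55335 in the table of old cells. AP-1 is a family of dimeric transcription factors: a Jun protein pairs with itself, with a Fos protein or with a relative such as Atf3, and the dimer binds short DNA elements in promoters and enhancers. Fos, Fosb, Jun, Junb and Atf3 are known as immediate early genes, whose transcripts appear within minutes of a stimulus and are degraded quickly, whereas Fosl1 and Fosl2 usually follow later and Jund is more steadily expressed. In skeletal muscle, AP-1 transcripts are known to be induced when satellite cells, the resident muscle stem cells, are activated or when the tissue is taken apart.

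The counts came from RNA of satellite cells of C57BL/6 mice, taken from skeletal muscle, in 15 groups of 2 libraries. Hind limbs were injured with barium chloride (BaCl2), which kills muscle fibres, and the protocol, which is the same for every sample, states perfusion with paraformaldehyde (PFA) before isolation; the source labels name fixation in place for every group but oASC and oFISC. The injured groups were taken at 0.5, 1, 2, 4, 8, 16, 32 and 60 h and at 7, 14 and 28 days, and the uninjured group had no treatment. The groups from old mice, whose age in months is not given in the sources used here, were oASC (injured, 2.5 days), oFISC (labelled freshly isolated and also BaCl2 injury) and oQSC (fixed in place, with no treatment). The labels do not say whether the 2 libraries of a group came from separate mice or from pooled mice, so the p-values measure only the spread between these libraries.

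Library totals ran from 9182407 to 57441790 counts. Levels are given as CPM, a gene's counts relative to the library's scaled total, after trimmed mean of M values (TMM) scaling, within a table where libraries of 1 table are compared and over all 30 libraries where tables are compared. All 8 markers of satellite cells had counts in every library. Between the 2 libraries of a group the cell state was often not alike: Pax7, which marks quiescent satellite cells, had 756 and 135 CPM (0.5 h), 554 and 150.4 (1 h), 122 and 749 (2 h) and 987 and 69.8 (4 h) in libraries 1 and 2. Myod1, which marks activated cells, ran the other way, with 115 and 1518 CPM (0.5 h), 159 and 1832 (1 h), 1975 and 81.8 (2 h) and 87.7 and 2172 (4 h). So each of these 4 groups paired a library high in Pax7 with one high in Myod1. The libraries of 16 and 32 h differed in the same manner, though less in Myod1. Pax7 was at 84.8 and 301 CPM (16 h) and 53.6 and 290 CPM (32 h) in libraries 1 and 2. Myod1 was at 2532 and 1422 CPM (16 h) and 1369 and 412 CPM (32 h). The oQSC libraries, labelled as untreated, did not look like the uninjured ones: on the scale over all 30 libraries, Pax7 was at 84.5 and 72.7 CPM in oQSC and 1745 and 1554 CPM in uninjured cells, and Myod1 at 1069 and 1535 CPM in oQSC and 41.4 and 50.8 CPM in uninjured cells.

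Markers of other cells were measured beside the AP-1 genes. On the scale over all 30 libraries, the summed level of 6 neutrophil markers was 27.0 and 30.6 CPM at 0.5 h and 1.19 and 1.63 CPM in uninjured cells, with Ly6g at 0 in all 4 of these libraries. That of 6 macrophage markers was 20 and 24.1 CPM at 0.5 h and 4.87 and 3.44 CPM in uninjured cells, with Adgre1 at 0 in all 4, and it reached 439 CPM in 1 library at 32 h. Of 6 markers each, 4 endothelial and 4 myofibre ones were called higher at 1 h, and 5 macrophage ones at 60 h, beside 6.57% and 15.5% of all genes. Fibro-adipogenic markers had 3 of 6 called higher at 0.5, 1 and 4 h, beside 6.88%, 6.57% and 7.18% of all genes. Macrophage markers had 4 at 32 h (14.1% of all genes), and neutrophil markers 3 of 5 tested at 8 and 16 h (16.1% and 14.2%). Other calls of these lists are not reported here. Endothelial markers summed to 9.82 to 198 CPM (0.5 to 60 h) and 33.1 to 67.5 CPM (uninjured), fibro-adipogenic ones to 336 to 1344 CPM (0.5 to 60 h) and 718 to 921 CPM (uninjured). Pericyte and smooth muscle markers summed to 47.6 to 355 CPM (0.5 to 60 h) and 111 to 173 CPM (uninjured), and myofibre ones to 14.9 to 129 CPM (0.5 to 60 h) and 4.00 to 10.1 CPM (uninjured). Lymphocyte markers summed to 0.596 to 9.75 CPM (0.5 to 60 h) and 2.57 to 2.70 CPM (uninjured), and Schwann ones to 2.04 to 52.5 CPM (0.5 to 60 h) and 21.5 to 24.2 CPM (uninjured). The 8 satellite cell markers summed to 2940 to 18059 CPM from 0.5 to 60 h and 3597 to 3793 CPM in uninjured cells, and 4 genes of myogenic progress to 94.5 to 3362 CPM (0.5 to 60 h) and 60.7 to 78.9 CPM (uninjured). The part of these cells in the AP-1 levels was not tested. In bulk RNA, more cells with a transcript and more of it per cell cannot be told apart.

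In the GRCm38 annotation (GENCODE M21), Fos (ENSMUSG00000021250.13) lies on chromosome 12 from 85473890 to 85477273, Fosb (ENSMUSG00000003545.3) on chromosome 7 from 19302696 to 19310051 and Fosl1 (ENSMUSG00000024912.6) on chromosome 19 from 5447547 to 5455946. Fosl2 (ENSMUSG00000029135.10) lies on chromosome 5 from 32135801 to 32157842, Jun (ENSMUSG00000052684.4) on chromosome 4 from 95049034 to 95052222 and Junb (ENSMUSG00000052837.6) on chromosome 8 from 84974484 to 84978718. Jund (ENSMUSG00000071076.6) lies on chromosome 8 from 70698949 to 70700616 and Atf3 (ENSMUSG00000026628.13) on chromosome 1 from 191170296 to 191218039. Fosb, Jun, Junb and Atf3 are on the minus strand. The 8 genes are thus spread over 7 chromosomes, with Junb and Jund on the same one.

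Of the 8 loci, 5 overlap a gene on the other strand, and no source used here says that counting used strand. Fosl1 shares 2767 bases with Ccdc85b, Jund 919 bases with Gm11175, Jun 689 bases with Junos, Junb 351 bases with Prdx2 and Atf3 108 bases with Gm24748. Gm11175 had 0 counts in every library, and Junos stayed between 0 and 5.45 CPM in its own tables, so little was listed under the neighbours of Jund and Jun. Prdx2 was at 158 and 61.3 CPM at 0.5 h and 106 and 90.6 CPM in uninjured cells. Ccdc85b had more counts than Fosl1 in uninjured cells, and its values stand beside those of Fosl1 in the account of the time course.

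Since several members moved together after injury, their promoters were compared. RefSeq (GRCm38.p6) promoters were matched for 7 of the 8 genes; Fosl1 is named only. The 5 letters TGACG, with which the cyclic AMP response element begins and which Atf and Creb proteins bind as part of it, were found on either strand within 250 bases before the start site in 4 of 7 members (Fos, Fosb, Junb and Atf3) and in 17.8% of 32851 promoters. The 250 bases before the start of these 4 genes are shown 5′ to 3′ on the gene's own strand, because they hold these matches, with TGACG, its reverse complement CGTCA and the TATA box TATAAA in capitals. They cover chr12:85473640-85473889 for Fos (plus strand), chr7:19310046-19310295 for Fosb (minus strand), chr8:84978749-84978998 for Junb (minus strand) and chr1:191183334-191183583 for Atf3 (minus strand).
Fos: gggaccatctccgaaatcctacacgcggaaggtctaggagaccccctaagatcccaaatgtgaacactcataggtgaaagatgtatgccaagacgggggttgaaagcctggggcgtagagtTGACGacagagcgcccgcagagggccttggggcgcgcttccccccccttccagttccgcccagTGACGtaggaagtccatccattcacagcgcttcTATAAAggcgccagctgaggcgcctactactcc
Fosb: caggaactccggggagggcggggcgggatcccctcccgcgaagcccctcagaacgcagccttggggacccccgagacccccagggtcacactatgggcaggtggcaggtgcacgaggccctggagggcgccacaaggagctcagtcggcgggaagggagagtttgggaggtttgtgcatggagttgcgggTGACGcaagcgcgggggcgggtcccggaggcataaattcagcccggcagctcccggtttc
Junb: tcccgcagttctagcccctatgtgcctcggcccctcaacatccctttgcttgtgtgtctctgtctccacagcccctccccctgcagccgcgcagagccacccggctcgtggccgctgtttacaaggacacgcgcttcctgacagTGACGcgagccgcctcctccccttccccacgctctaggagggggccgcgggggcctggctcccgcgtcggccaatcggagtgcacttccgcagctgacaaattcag
Atf3: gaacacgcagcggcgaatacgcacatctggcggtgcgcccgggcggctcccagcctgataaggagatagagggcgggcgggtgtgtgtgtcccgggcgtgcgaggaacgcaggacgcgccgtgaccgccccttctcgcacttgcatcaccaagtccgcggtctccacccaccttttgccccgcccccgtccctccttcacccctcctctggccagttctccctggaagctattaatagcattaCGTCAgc
Counting from the start site, TGACG began at -129 and -66 in Fos, -60 in Fosb and -106 in Junb, and CGTCA began at -7 in Atf3. The full element TGACGTCA was in 0 of 7 members and 1.79% of promoters from 250 bases before to 50 after the start. In that same window the AP-1 element TGANTCA was in 0 of 7 members and 7.81% of promoters, and the CArG box, bound by Srf, was in 0 of 7 and 1.63%. TATAAA was in 2 of 7 members, at -33 in Fos and from the RefSeq start on, past the bases shown, in Junb, and in 13.6% of promoters. Counted in bases downstream of the outermost GENCODE start, the RefSeq start lies at -1210 in Jund, -30 in Junb, 671 in Fosl2 and 34706 in Atf3. All searches covered both strands, TGACG is contained in the full element, and an absent match says only that these letters are not in this window.

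Fos, the partner that gives AP-1 its name with Jun, was high from the earliest time on. Its level was 91.4 and 54.6 CPM (uninjured), 2206 and 2643 (0.5 h), 3976 and 2999 (1 h), 2933 and 4804 (2 h) and 3780.3 and 2747 (4 h). Later it stood at 1974 and 2035 (8 h), 1135 and 177 (16 h), 839 and 861 (32 h) and 45.7 and 139.6 CPM (60 h), on the scale of the time course. Both libraries of every time from 0.5 to 32 h were above both uninjured ones, the libraries of 1, 2 and 4 h overlapped each other, and those of 60 h overlapped the uninjured ones. Of all 22479 genes tested, between 30.2% (0.5 h) and 39.4% (32 h) lay above both uninjured libraries at a single time from 0.5 to 60 h. These shares stand beside the same statement for the genes below. Against uninjured cells the log2 fold change was 5.05 ± 0.80 (SE) at 0.5 h with adjusted p = 0.00414 and 5.73 ± 0.83 at 2 h with adjusted p = 0.00285. It was 3.54 ± 0.75 at 32 h with adjusted p = 0.00694 and 0.34 ± 0.68 at 60 h with adjusted p = 0.736. At 16 h the libraries were far apart, 6.41-fold, and without library 1 of that group Fos was not called (log2 fold change 1.25, adjusted p = 0.205).

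Fosb, a close relative of Fos whose gene also gives a shortened protein that gene counts cannot separate, followed a similar course with more spread. It was at 34.7 and 8.91 CPM (uninjured), 140.3 and 1203 (0.5 h), 695 and 1029 (1 h), 925 and 1441 (2 h) and 1543 and 913 (4 h). From 8 h on it was at 600.0 and 652 (8 h), 348 and 13.4 (16 h), 292 and 192 (32 h) and 11.2 and 37.6 CPM (60 h). The uninjured libraries already differed 3.89-fold, and at 16 h 1 of the 2 libraries lay between them. Fosb passed the test at each time from 0.5 to 8 h, with a log2 fold change of 4.95 ± 1.36 (SE, adjusted p = 0.0382) at 0.5 h and 5.82 ± 1.42 (adjusted p = 0.0236) at 4 h. Without library 2 of 0.5 h, the higher one, the call at that time was lost (adjusted p = 0.245). It was also lost without either library of 1 h (0.0504 and 0.0851) or of 8 h (0.0561 and 0.0620), without library 1 of 2 h (0.0623) and without library 2 of 4 h (0.0582).

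Fosl1 encodes Fra-1, a Fos protein without the strong activation domain of Fos that is usually made later than Fos. Its level was 1.03 and 0 CPM (uninjured, 11 and 0 counts), 2.31 and 868 (0.5 h), 98.6 and 472 (1 h), 406 and 6.96 (2 h) and 7.27 and 529 (4 h). At the later times it had 973 and 862 (8 h), 778 and 306 (16 h), 462 and 55.2 (32 h) and 134 and 85.3 CPM (60 h). Every injured library was above both uninjured ones, but the 2 libraries of 0.5, 2 and 4 h differed 375-fold, 58.3-fold and 72.8-fold. Fosl1 passed the test at 8 h, with a log2 fold change of 11.01 ± 3.29 (SE, adjusted p = 0.0264), and at 16 h, with 10.25 ± 3.21 (adjusted p = 0.0375), and at no other time. Leaving out either library of 8 h (adjusted p of 0.0631 and 0.0644) or either of 16 h (0.117 and 0.0625) ended the call of that time. So did leaving out either uninjured one (0.0860 and 0.136 at 8 h, 0.113 and 0.184 at 16 h). These folds depend on how few counts the uninjured libraries held. Ccdc85b, whose gene overlaps Fosl1, had 34.7 and 362 CPM (0.5 h), 650.3 and 36.0 (2 h) and 44.3 and 467 (4 h) and was high in the same libraries. In uninjured cells, though, Ccdc85b was at 31.4 and 31.1 CPM, where Fosl1 was near 0.

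Fosl2 encodes Fra-2, also usually a later member, and its changes were smaller. It was at 61.8 and 70.6 CPM (uninjured), 69.5 and 197 (0.5 h), 277 and 181 (1 h), 217 and 368 (2 h) and 541 and 218 (4 h). The later values were 163 and 145 (8 h), 129 and 125 (16 h), 78.1 and 106 (32 h) and 94.7 and 132 CPM (60 h). At 0.5 h 1 library lay between the uninjured ones, and from 1 h on every library lay above both. The gene passed the test at 1, 2 and 4 h, with the largest log2 fold change, 2.52 ± 0.54 (SE, adjusted p = 0.0148), at 4 h. The call at 1 h (log2 fold change 1.79 ± 0.53, adjusted p = 0.0497) was just under the threshold and was kept in 2 of 11 alternatives, with an adjusted p of 0.0113 to 0.246 over the 11, and was lost without any 1 of its 4 libraries (0.0802 to 0.246). The calls at 2 and 4 h were lost without either uninjured library (adjusted p of 0.190 and 0.134 at 2 h and 0.122 and 0.0870 at 4 h). That at 2 h was also lost without either library of 2 h (0.0527 and 0.0954), and that at 4 h without library 1 of 4 h (0.0656).

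**Figure D1:**
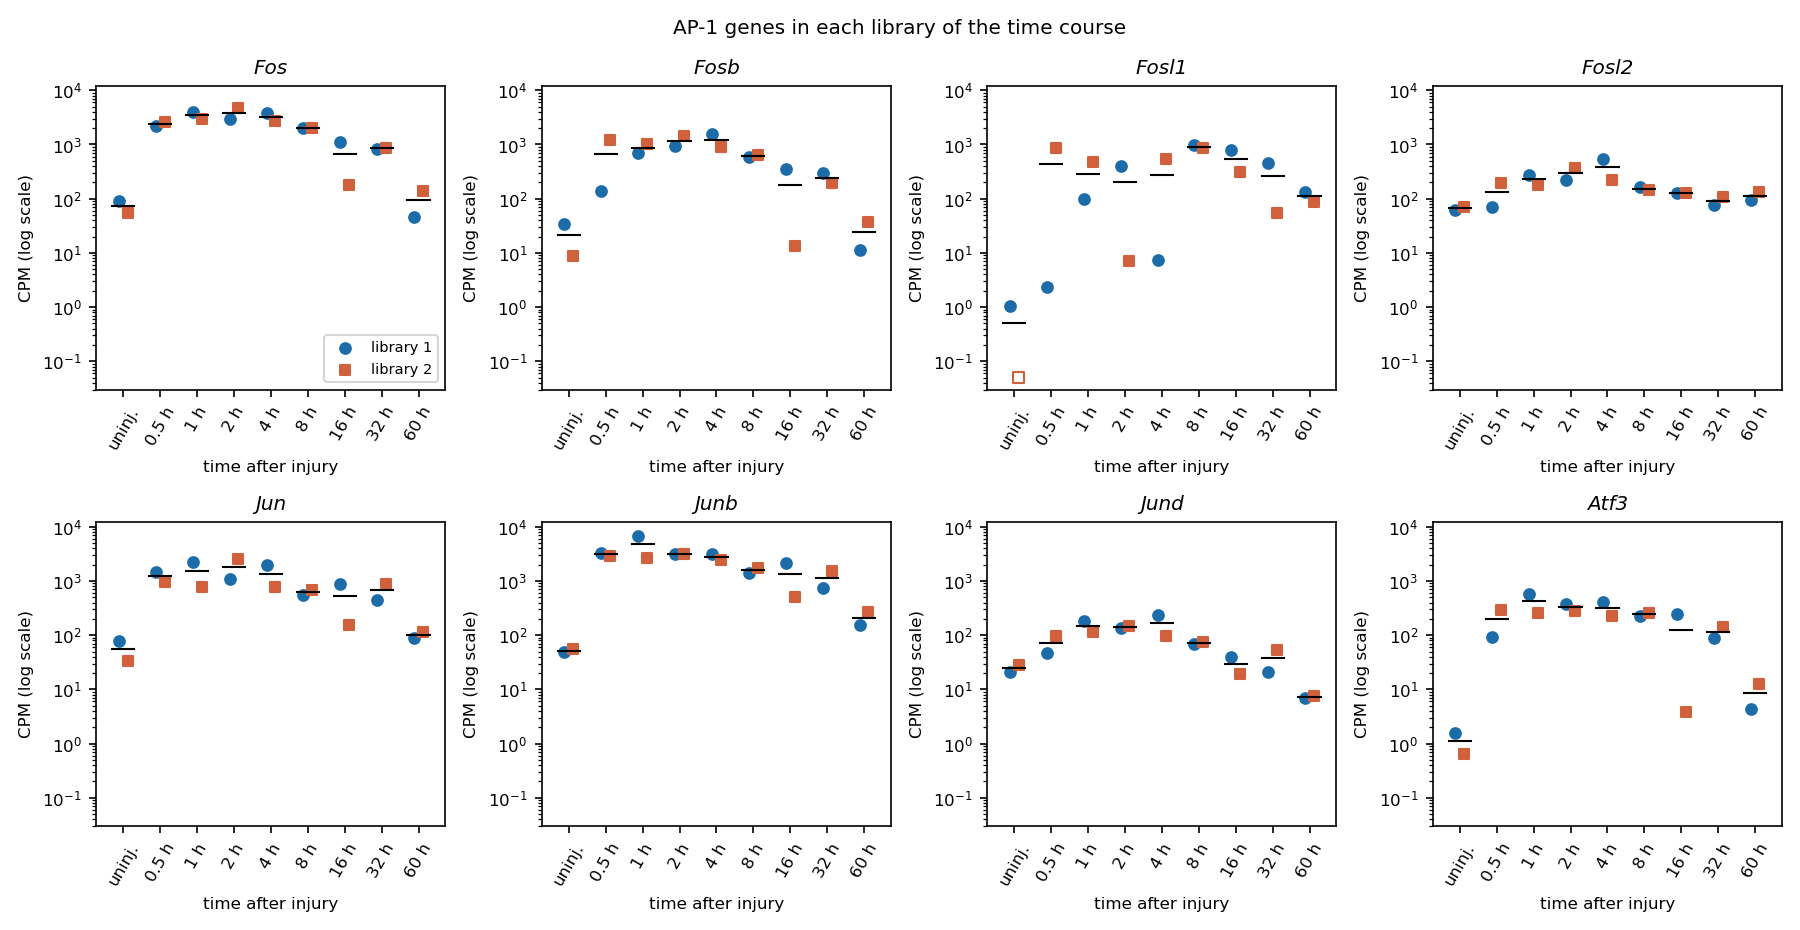
Level of each AP-1 gene (CPM scaled within the time course, log axis) against time after injury. Blue circles are library 1, orange squares library 2, bars the group means, and open symbols 0 counts. Fos, Fosl1, Jun, Junb and Atf3 lie above both uninjured libraries in every library from 0.5 to 32 h, as do 30.2% (0.5 h) to 39.4% (32 h) of all genes at a single time. Fosl1 differs most between the 2 libraries at 0.5, 1, 2, 4 and 32 h, and Atf3 at 16 h.

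Jun, which carries a strong activation domain and is a target of Jun kinases, was at 77.6 and 33.4 CPM (uninjured), 1475 and 950.1 (0.5 h), 2252 and 788 (1 h), 1108 and 2581 (2 h) and 1971 and 766 (4 h). Thereafter it was at 547 and 681 (8 h), 881 and 155 (16 h), 442 and 895 (32 h) and 87.7 and 115 CPM (60 h). All libraries from 0.5 to 60 h were above both uninjured ones, those of 60 h by little. Jun passed the test at every time from 0.5 to 32 h, with log2 fold changes between 3.22 ± 0.85 (SE, adjusted p = 0.0188) at 16 h and 5.06 ± 0.93 (adjusted p = 0.00783) at 2 h. At 60 h it was 0.87 ± 0.79 (adjusted p = 0.419) and was not called. At 16 h Jun was not called without library 1 (adjusted p = 0.275), nor at 8 and 32 h without library 2 (adjusted p of 0.0552 and 0.0587).

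Junb, which can both replace and restrain Jun in dimers, was above Jun and Jund per kb of exon from 0.5 to 60 h. Its level was 48.5 and 55.6 CPM (uninjured), 3293 and 2898 (0.5 h), 6864 and 2625 (1 h), 3128 and 3195 (2 h) and 3143 and 2481 (4 h). The levels after that were 1433 and 1714 (8 h), 2188 and 514 (16 h), 728 and 1557 (32 h) and 154 and 269 CPM (60 h). No injured library came down to the uninjured level. Junb passed the test at all 8 times, with a log2 fold change of 5.89 ± 0.74 (SE, adjusted p = 0.00160) at 0.5 h, 6.51 ± 0.77 (adjusted p = 0.000917) at 1 h and 2.02 ± 0.63 (adjusted p = 0.0298) at 60 h. From 1 to 32 h its calls were kept in all 11 alternatives tried at each time, and at 0.5 h in 10 of 11. The call at 60 h was lost without uninjured library 1 (adjusted p = 0.154), uninjured library 2 (0.122) or library 2 of 60 h (0.171).

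Jund, the steadier Jun protein, which is known to slow growth in some cells, had the smallest log2 fold changes among the 3 Jun genes from 0.5 to 32 h and was lower than in uninjured cells at 60 h. It was at 21.2 and 28.7 CPM (uninjured), 46.6 and 95.1 (0.5 h), 185 and 113 (1 h), 136 and 149 (2 h) and 239 and 95.4 (4 h). Later levels were 68.2 and 75.8 (8 h), 40.2 and 19.0 (16 h), 20.7 and 54.4 (32 h) and 7.03 and 7.68 CPM (60 h). The libraries of 0.5 to 8 h were above both uninjured ones, those of 16 and 32 h lay on both sides, and those of 60 h were below both. Of all genes, 35.2% were below both at 60 h. Jund passed the test as higher at 1, 2 and 4 h, with a log2 fold change of 2.75 ± 0.59 (SE, adjusted p = 0.0150) at 4 h, and as lower at 60 h, with -1.76 ± 0.58 (adjusted p = 0.0382). Leaving out any 1 of the 4 libraries of 60 h and uninjured cells ended the call at 60 h, with an adjusted p between 0.0801 and 0.173. Without either uninjured library Jund was called at none of 1, 2 and 4 h (adjusted p between 0.0791 and 0.178), and the calls also ended without library 1 of 1 h (0.0699), of 2 h (0.0732) or of 4 h (0.0648).

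Atf3, a stress-induced relative that binds Jun proteins and represses many promoters as a dimer with itself, had the largest change of those called at 0.5 h. It was at 1.59 and 0.657 CPM (uninjured, 17 and 14 counts), 93.6 and 296 (0.5 h), 585 and 259 (1 h), 378 and 281 (2 h) and 404 and 227 (4 h). Its later values were 227 and 261 (8 h), 241 and 3.78 (16 h), 86.9 and 139.9 (32 h) and 4.37 and 12.5 CPM (60 h). Every injured library was above both uninjured ones, although library 2 of 16 h, at 3.78 CPM, was 63.8-fold below library 1. The log2 fold change was 7.48 ± 1.55 (SE, adjusted p = 0.0123) at 0.5 h, 8.60 ± 1.62 (adjusted p = 0.00771) at 1 h, 6.70 ± 1.50 (adjusted p = 0.00935) at 32 h and 2.96 ± 1.3 (adjusted p = 0.105) at 60 h. Without library 1 of 16 h the call at that time was lost (log2 fold change 1.77, adjusted p = 0.236).

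Counted together, 5 of 8 members were called higher at 0.5 h, when 6.88% of 22479 genes tested were, and 7 of 8 at 1 h, 2 h and 4 h, when 6.57%, 6.32% and 7.18% were. At 8 h 6 of 8 were called higher against 16.1% of all genes, at 16 h 5 of 8 against 14.2% and at 32 h 4 of 8 against 14.1%. At 60 h 1 of 8 was called higher and 1 lower, against 15.5% and 12.8% of all genes. For 0.5, 2, 8, 32 and 60 h the members' median log2 fold changes were 5, 5.75, 4.81, 3.57 and 0.83, beside medians over all genes of 0.24, 0.18, 0.00, 0.25 and 0.00. Under the size factors of DESeq2 (relative log expression, RLE) the median over all genes was 0.06 in place of 0.18 at 2 h, 0.06 in place of 0.17 at 4 h, -0.03 in place of 0.11 at 16 h and 0.01 in place of 0.25 at 32 h. The share of all calls that were higher was 51.9% in place of 62.5% at 16 h and 57.8% in place of 68.7% at 32 h; no called member changed direction under it. A test for any change over the 9 groups called 7 of 8 members, all but Fosl1 (adjusted p = 0.334). It called 24.7% of all genes.

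The calls leaned on the uninjured libraries, on which all 8 of these contrasts rest. With either of them left out, only Fos and Junb were called at 0.5, 1, 2 and 4 h. At 8 h Fos, Junb and Atf3 were called without uninjured library 1, and Fos and Junb without library 2. At 16 h Junb alone was called without either, and at 32 h Fos and Junb were called without library 1 and Junb alone without library 2. The adjusted p of Jun lay between 0.0523 and 0.143, and that of Atf3 between 0.0508 and 0.101 where it was not called, at 0.5 to 32 h without 1 uninjured library. That of Fosb lay between 0.0642 and 0.202 at 0.5 to 8 h. In a fit of the 4 libraries of 0.5 h and uninjured cells alone, edgeR called 0 members, with an adjusted p of 0.0893 for Fos and for Junb. With the whole time course fitted, edgeR called 5 at 0.5 h, beside 6.88% of all genes called higher. DESeq2 called 6, and 7 had an unadjusted p under 0.05. The shares of all genes for these last counts are not given here, so they do not show whether the members stand out.

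Against 8 h, most members were lower at 60 h. Fos, Fosb, Jun, Junb, Jund and Atf3 were all lower at 60 h, 6 of 8 members, when 11.2% of all genes were called lower. The log2 fold change was -4.85 ± 1.35 (SE, adjusted p = 0.0214) for Atf3, -4.68 ± 1.34 (adjusted p = 0.0249) for Fosb, -4.44 ± 0.78 (adjusted p = 0.00216) for Fos and -3.29 ± 0.61 (adjusted p = 0.00292) for Jund. It was -2.89 ± 0.65 (adjusted p = 0.00766) for Junb and -2.60 ± 0.83 (adjusted p = 0.0385) for Jun. The groups did not overlap for Fosl1 (60 h, 134 and 85.3 CPM; 8 h, 973 and 862 CPM), but it was not called (log2 fold change -3.06 ± 2.27, adjusted p = 0.343), nor was Fosl2 (-0.44 ± 0.52, adjusted p = 0.568). Of all genes, 38.1% were apart and lower at 60 h. Leaving out any 1 of the 4 libraries left 2 or 3 members called: Fos and Jund without library 1 of 60 h, and Fos, Junb and Jund without each of the other 3, while the lost ones had an adjusted p between 0.0604 and 0.198.

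Within a time, the members did not side with the same library. At 0.5, 1, 2 and 4 h Jun was higher in the library with more Pax7 at each of the 4 times, at 1475 against 950.1 CPM, 2252 against 788 CPM, 2581 against 1108 CPM and 1971 against 766 CPM. So was Junb, at 3293 against 2898 CPM, 6864 against 2625 CPM, 3195 against 3128 CPM and 3143 against 2481 CPM. Fosl1 was higher in the library with more Myod1 at each of them, at 868 against 2.31 CPM, 472 against 98.6 CPM, 406 against 6.96 CPM and 529 against 7.27 CPM. Fos was higher in the library with more Pax7 at 1, 2 and 4 h and lower in it at 0.5 h, and it differed between them at most 1.64-fold. At 16 h Jun and Junb were higher in the library with more Myod1, and at 32 h in that with more Pax7. The libraries set side by side are of 1 group each, so their difference was not tested. Over the 18 libraries, which share their table and its scaling, the Pearson r of log2 CPM of Fos was 0.96 with Fosb, 0.95 with Jun, 0.95 with Junb, 0.95 with Atf3 and 0.88 with Jund. For Fosl2 and Fos it was 0.69, and for Fosl1 and the other 7 it lay between 0.10 (Jund) and 0.54 (Atf3); these values are a description and pool groups that stand apart.

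**Figure D2:**
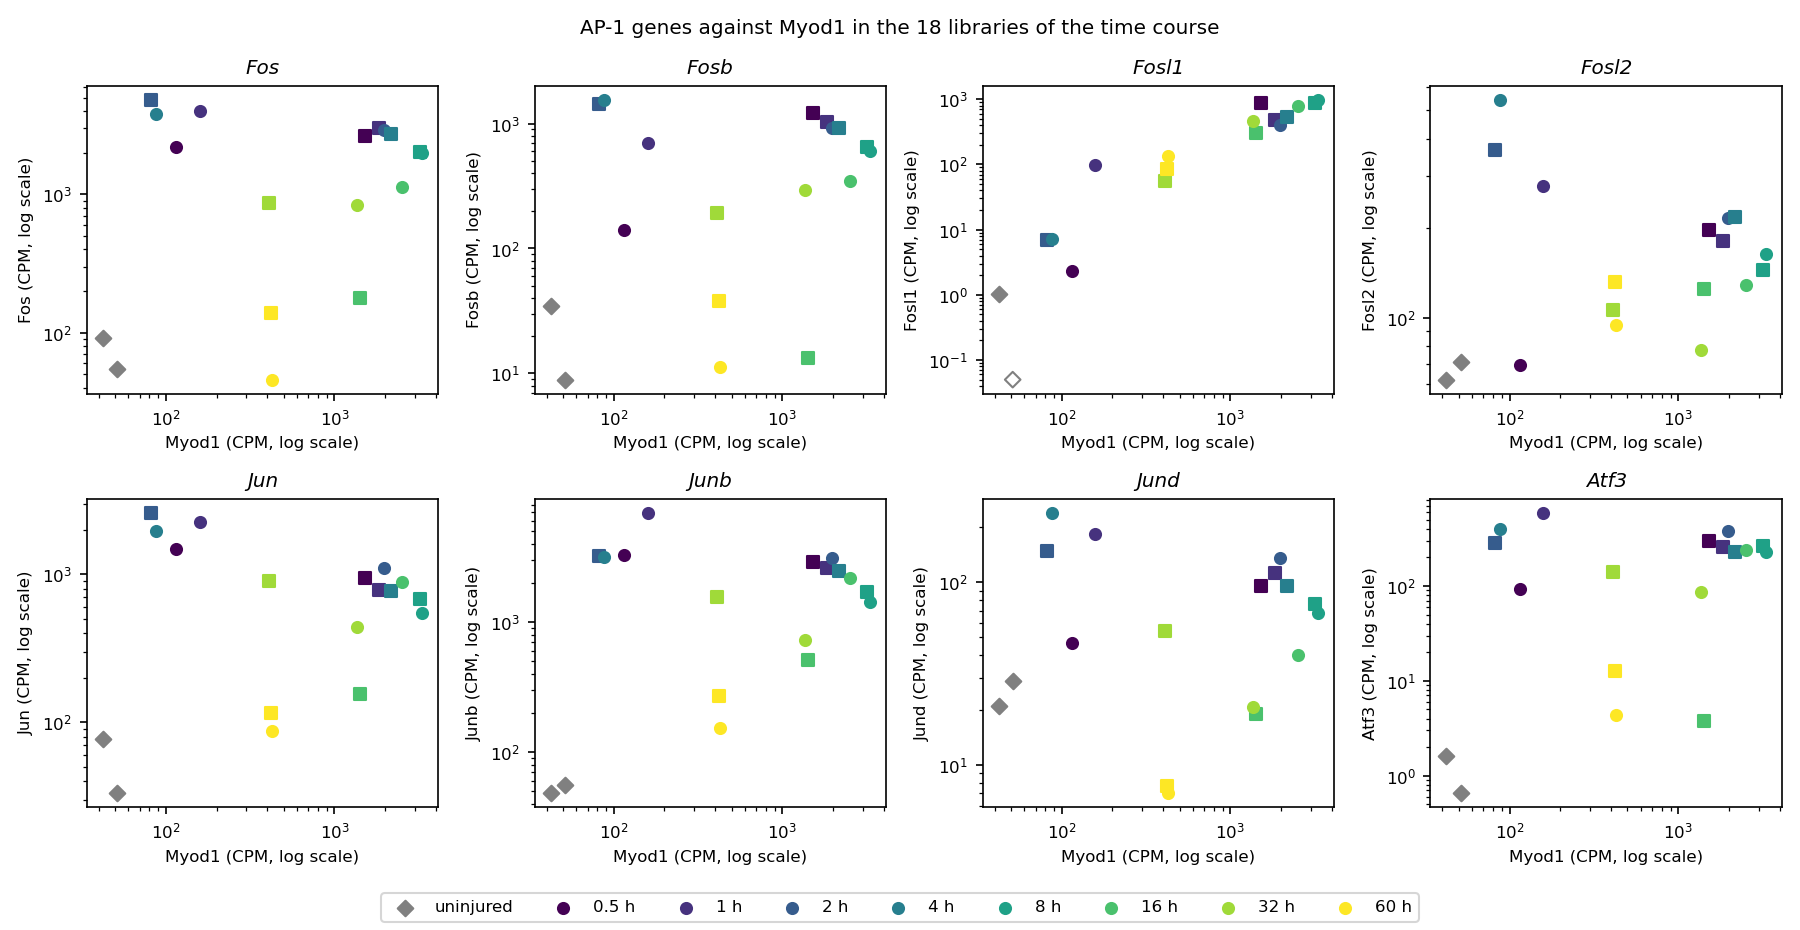
Each AP-1 gene against Myod1 (both CPM scaled within the time course, log axes) in the 18 libraries, coloured by time after injury. Diamonds are uninjured libraries, circles library 1, squares library 2, and the open diamond has 0 counts of Fosl1. Fosl1 is at or below 7.27 CPM where Myod1 is below 116 CPM and at or above 55.2 CPM where Myod1 is higher, whereas Fos and Junb are high in libraries on both sides.

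The genes most like a member over the 18 libraries, among 6269 genes with a mean of at least 20 CPM, differed by member. For Fos they were Btg2 (Pearson r = 0.97), an antiproliferative immediate early gene, Klf4 (0.97), a zinc finger factor, Gem (0.96), a small GTPase, Sat1 (0.96), an enzyme of polyamine breakdown, and Dnajb9 (0.96), a chaperone of the endoplasmic reticulum. For Fosl1 they were Noct (0.97), Emc6 (0.97), Trmt10c (0.97), Igf2bp2 (0.97) and Slc25a5 (0.96), none of them shared with the list of Fos. For Jund they were Map1lc3a (0.95), Maff (0.95), Ccrl2 (0.94), Nebl (0.93) and Ubl3 (0.93), of which Maff encodes a small Maf protein that can pair with Fos proteins. By Spearman rho, 2 of the 5 genes were shared for Fos, 1 of 5 for Fosl1 and 2 of 5 for Jund.

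Per kb of exon, a scale that sets genes side by side for length, the make-up of the family differed between times. Lengths were not adjusted for the bases that Fosl1, Jund and other loci share with a gene on the other strand. Whether reads there were counted is not known. In each library the share of each gene in the summed CPM per kb of the 8 genes was taken. Junb held 48.8% and 35.8% at 0.5 h and 19.1% and 28.7% in uninjured cells, and Jund held 0.951% and 1.62% at 0.5 h and 11.5% and 20.4% in uninjured cells, with no overlap for either. Fos held 32.0% and 32.0% at 0.5 h and 35.3% and 27.6% in uninjured cells, so its share lay between the uninjured ones while its level was higher. By 60 h Fosl1 held 33.4% and 14.7%, against 0.460% and 0% in uninjured cells, and Junb held 33.8% and 41.1%. Fosl2 held 4.95% and 4.80% at 60 h and 5.80% and 8.68% in uninjured cells. All 8 genes together made up 0.0267% and 0.0252% of counts in uninjured cells, 0.953% and 0.866% at 0.5 h and 0.0473% and 0.0654% at 60 h. Models of ribosomal RNA and satellite repeats took 50.9% and 38.2% of counts in uninjured cells, 9.29% and 4.59% at 0.5 h and 28.6% and 31.4% at 60 h. Of the remaining counts, the 8 genes made up 0.0544% and 0.0407% in uninjured cells, 1.05% and 0.907% at 0.5 h and 0.0663% and 0.0954% at 60 h.

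**Figure D3:**
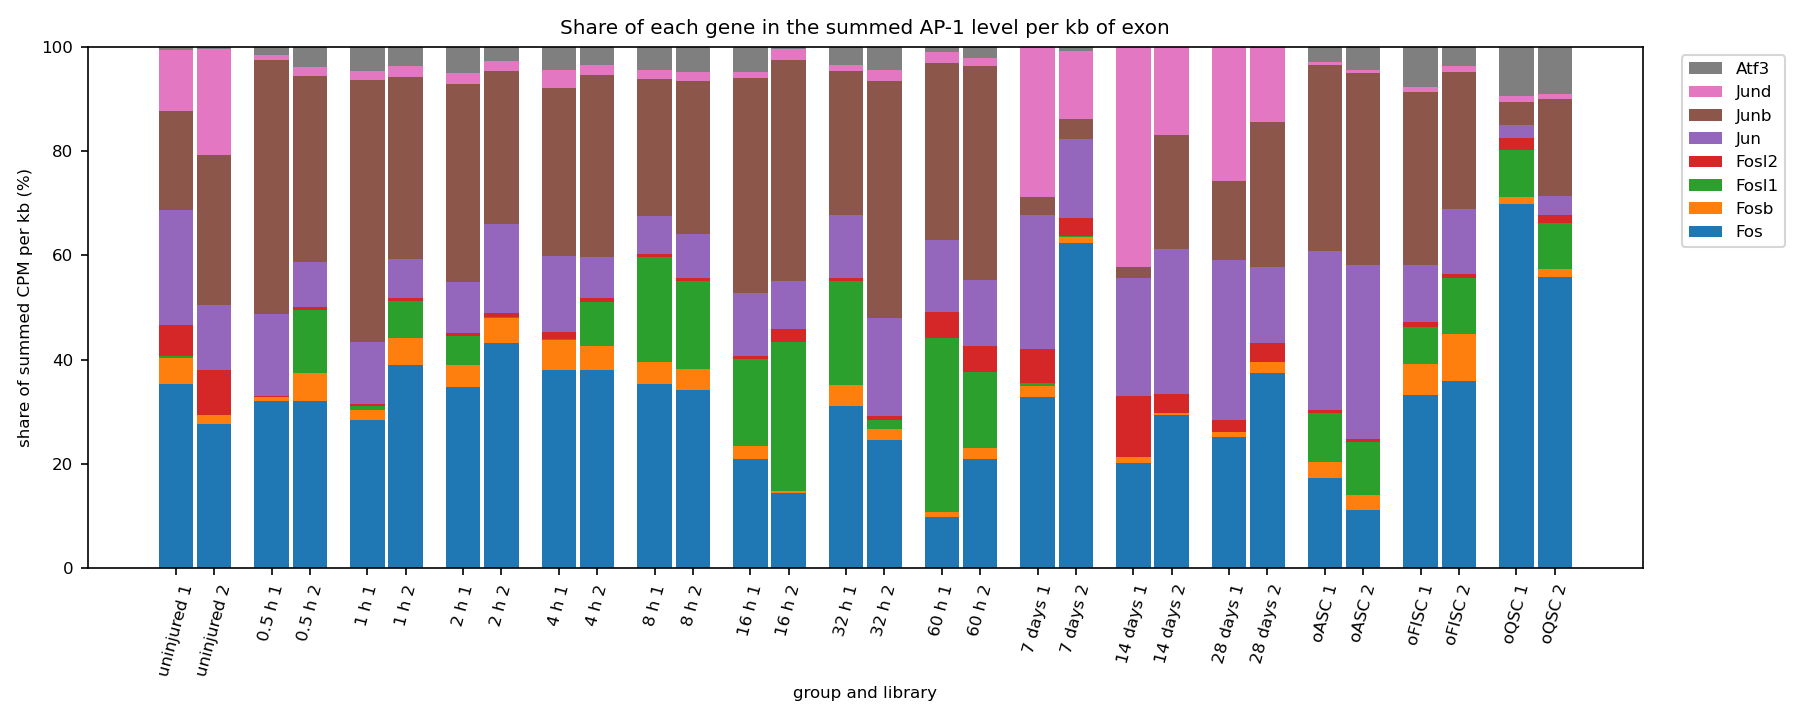
Share of each AP-1 gene (percent, stacked to 100) in the summed CPM per kb of the 8 genes, for each of the 30 libraries. Jund fills more of the bars in uninjured cells and at 7 to 28 days, Junb and Fos most of those from 0.5 to 8 h, and Fos most of those of oQSC. Fosl1 fills at least 14.7% in both libraries of 8, 16 and 60 h and in library 1 of 32 h (19.8%). Elsewhere it fills at most 12.1%, in library 2 of 0.5 h.

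At 7, 14 and 28 days most members were at or below the uninjured level, on the scale over all 30 libraries. These libraries and the uninjured ones are in different tables, so time after injury and table cannot be told apart. Fos was at 89.6 and 54.1 CPM in uninjured cells, 43.2 and 149 CPM at 7 days, 23.3 and 39.3 CPM at 14 days and 38.0 and 94.6 CPM at 28 days, and overlapped the uninjured libraries at 7 and 28 days. Junb was at 47.6 and 55.1 CPM in uninjured cells, 4.53 and 8.95 CPM at 7 days, 2.24 and 28.6 CPM at 14 days and 22.3 and 68.7 CPM at 28 days, below both uninjured libraries at 7 and 14 days and on both sides of them at 28 days. Jun was at 76.0 and 33.0 CPM (uninjured), 46.0 and 49.4 (7 days), 35.6 and 50.5 (14 days) and 62.7 and 50.4 (28 days) and overlapped the uninjured libraries throughout. Jund was at 20.8 and 28.4 CPM (uninjured), 26.8 and 22.2 (7 days), 34.7 and 16.0 (14 days) and 27.6 and 25.6 (28 days) and did likewise. Neither gene was called at any of the 3 times. Fosb was at 34.0 and 8.83 CPM (uninjured), 7.53 and 7.19 (7 days), 3.43 and 1.02 (14 days) and 3.74 and 14.5 (28 days) and overlapped them at 28 days. Fosl2 was at 60.6 and 70.0 CPM (uninjured), 35.1 and 35.2 (7 days), 55.9 and 20.8 (14 days) and 14.2 and 37.0 (28 days), below both uninjured libraries at each time. Of all genes, 24.6% at 7 days, 23% at 14 days and 23.7% at 28 days lay below both uninjured libraries. Library 2 of 14 days, in which Junb was the higher, also had more Myod1, at 27.6 and 222 CPM in libraries 1 and 2. Of 6 myofibre markers, 1 was called higher at 7 days and 4 at 14 and at 28 days, with sums of 10.1 and 4.00 CPM (uninjured), 46.1 and 46.2 (7 days), 132 and 222 (14 days) and 159 and 28.5 (28 days). Of all genes, 12.8% were called at 14 days and 6.49% at 28 days, in either direction. Of 6 endothelial markers, 1 was called higher and 2 lower at 7 days, when 5.35% of all genes were called lower. Their part in the AP-1 levels was not tested.

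Of the 8 members, Junb alone was called at 7 days against uninjured cells, as lower, with a log2 fold change of -2.93 ± 0.92 (SE, adjusted p = 0.0433), when 5.35% of 28823 genes were called lower. The call was lost without any 1 of the 4 libraries (adjusted p between 0.0970 and 0.261). Time and table cannot be told apart in the comparisons with uninjured cells. By edgeR 0 of 8 were called at 14 days, when 12.8% of all genes were called, and 0 of 8 at 28 days, when 6.49% were, with 2 and 1 members at an unadjusted p under 0.05. DESeq2 called 2 at 14 days, Fosb and Atf3, and 0 at 28 days. The shares of all genes called by DESeq2, or with an unadjusted p under 0.05, are not given here. Fosl1 had 0 counts in all 4 libraries of 14 and 28 days and was at 0.658 and 0.230 CPM at 7 days. Against the floor of 3 counts over the group it was, relative to the pooled uninjured libraries, at least 2.86-fold lower at 14 days and at least 3.35-fold lower at 28 days. That bound rests on uninjured library 1 alone, as libraries 1 and 2 had 1.03 and 0 CPM on the scale of the time course. By edgeR Fosl1 was not called at 14 or 28 days (adjusted p of 0.527 and 0.551). Atf3 had 0 counts at 14 days, at least 8.05-fold lower relative to uninjured libraries, and 0 and 4 counts at 28 days. Between 28 and 7 days, 0 of the 6 members that passed the filter on low counts were called by edgeR, when 0.295% of 16954 genes were, 1 had an unadjusted p under 0.05, and DESeq2 called 1, in both cases Junb. Within their own table it was at 30.3 and 91.2 CPM at 28 days and 5.59 and 10.8 CPM at 7 days (log2 fold change 2.89 ± 1.11, adjusted p = 0.303).

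In old cells, the members split. Within that table Fos was at 300.5 and 168 CPM in oASC, 804 and 957 CPM in oFISC and 2261 and 2405 CPM in oQSC. Fosl2 was at 38.9 and 39.5 CPM in oASC, 102 and 89.3 CPM in oFISC and 313 and 296 CPM in oQSC. Atf3 was at 46.6 and 61.3 CPM in oASC, 172 and 89.9 CPM in oFISC and 282 and 358 CPM in oQSC. Each of these 3 genes was lowest in oASC and highest in oQSC, with no overlap between groups. Jun ran the other way, at 722 and 677 CPM in oASC, 360.1 and 448 CPM in oFISC and 111 and 211 CPM in oQSC, again with no overlap. Fosb was highest in oFISC, at 146 and 110.0 CPM in oASC, 386 and 639 CPM in oFISC and 127 and 171 CPM in oQSC, where oASC and oQSC overlapped. Junb was at 609.6 and 541 CPM in oASC, 789 and 686 CPM in oFISC and 139.6 and 785 CPM in oQSC, where the oQSC libraries were 5.62-fold apart and both oASC libraries lay between them. Fosl1 was at 142 and 133 CPM in oASC, 149.5 and 246 CPM in oFISC and 249.9 and 327 CPM in oQSC. Jund was at 6.05 and 6.02 CPM in oASC, 14.3 and 20.8 CPM in oFISC and 23.8 and 27.2 CPM in oQSC. For both, the oASC libraries lay below all others. Of all genes, 38% were apart and lower in oASC than in oQSC, and 30.6% apart and higher. In oASC against oFISC these shares were 54.2% and 34%, and in oFISC against oQSC 31.7% and 47%. Pax7 was at 9.02 and 8.67 CPM in oASC, 24.6 and 21.3 CPM in oFISC and 73.5 and 61.5 CPM in oQSC. Myod1 was at 758 and 578 CPM in oASC, 737 and 1378 CPM in oFISC and 930 and 1299 CPM in oQSC. Of 6 markers each, 4 macrophage and 5 pericyte and smooth muscle ones were called lower in oFISC than in oQSC, beside 22.6% of all genes. In oASC, 5 endothelial and 5 pericyte and smooth muscle ones were called lower than in oQSC, beside 21.3%. The part of these markers was not tested.

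In oASC against oQSC, 1 of 8 members was called higher (Jun) and 5 lower (Fos, Fosl1, Fosl2, Jund and Atf3), beside 19% and 21.3% of 30099 genes. The change on the log2 scale was 2.12 ± 0.32 (SE, adjusted p = 0.000976) for Jun and -3.32 ± 0.33 (adjusted p = 0.000108) for Fos. It was -2.96 ± 0.20 (adjusted p = 1.77e-05) for Fosl2, -2.57 ± 0.33 (adjusted p = 0.000442) for Atf3 and -2.08 ± 0.25 (adjusted p = 0.000304) for Jund. Fosl1 changed by -1.07 ± 0.27 (adjusted p = 0.0142), a call lost without oQSC library 2 or either oASC library (adjusted p of 0.0950, 0.0817 and 0.0982). The median over all genes was -0.33. Injury and the labelled fixation in place, named for oQSC but not for oASC, cannot be told apart.

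In oFISC against oQSC, Fosb and Jun were called higher and Fos, Fosl2 and Atf3 lower, 2 and 3 of 8 members, beside 19.3% and 22.6% of all genes. On the log2 scale the change was 1.78 ± 0.30 (SE, adjusted p = 0.00236) for Fosb and 1.33 ± 0.31 (adjusted p = 0.0112) for Jun. Among those lower it was -1.67 ± 0.19 (adjusted p = 0.000319) for Fosl2, -1.41 ± 0.31 (adjusted p = 0.00822) for Fos and -1.29 ± 0.32 (adjusted p = 0.0141) for Atf3. These stand beside a median over all genes of 0.52, which RLE size factors put at 0.81, and of all calls 46% were higher, or 56.8% under RLE; no called member changed direction. Jun was not called without oQSC library 1 (adjusted p = 0.0670), nor Atf3 without oQSC library 2 (0.0703) or oFISC library 2 (0.0707). Fixation in place is named for oQSC and not for oFISC, so it cannot be told apart from the other labels of these groups.

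In oASC against oFISC, Fos, Fosb, Fosl2, Jund and Atf3 were called lower, 5 of 8, beside 39.7% of all genes, and Jun higher, 1 of 8, beside 27.3%. The change of the lower ones on the log2 scale was -2.00 ± 0.30 (SE, adjusted p = 0.000782) for Fosb and -1.91 ± 0.31 (adjusted p = 0.00114) for Fos. It was -1.54 ± 0.25 (adjusted p = 0.00109) for Jund, -1.29 ± 0.19 (adjusted p = 0.000670) for Fosl2 and -1.28 ± 0.32 (adjusted p = 0.00893) for Atf3. The median over all genes was -1.05 (-1.31 under RLE), so the changes of Fosl2 and Atf3 lay close to it. Jun, at 0.79 ± 0.31 (adjusted p = 0.0484), was not called under RLE (0.127), by DESeq2 (0.104) or without any 1 of the 4 libraries (0.0827 to 0.172), and Atf3 was not called without oFISC library 1 (0.0519) or oASC library 1 (0.0794). Of 6 markers each, 5 macrophage ones were called higher in oASC than in oFISC, and 5 endothelial, 5 pericyte and smooth muscle and 5 Schwann ones lower. The oFISC libraries were unlike each other: myofibre markers summed to 179.9 and 196 CPM in oASC and 529 and 34.8 CPM in oFISC, and ribosomal RNA and repeat models took 16.2% and 16% of counts in oASC and 62.2% and 31.1% in oFISC. The part of these in the AP-1 levels was not tested.

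**Figure D4:**
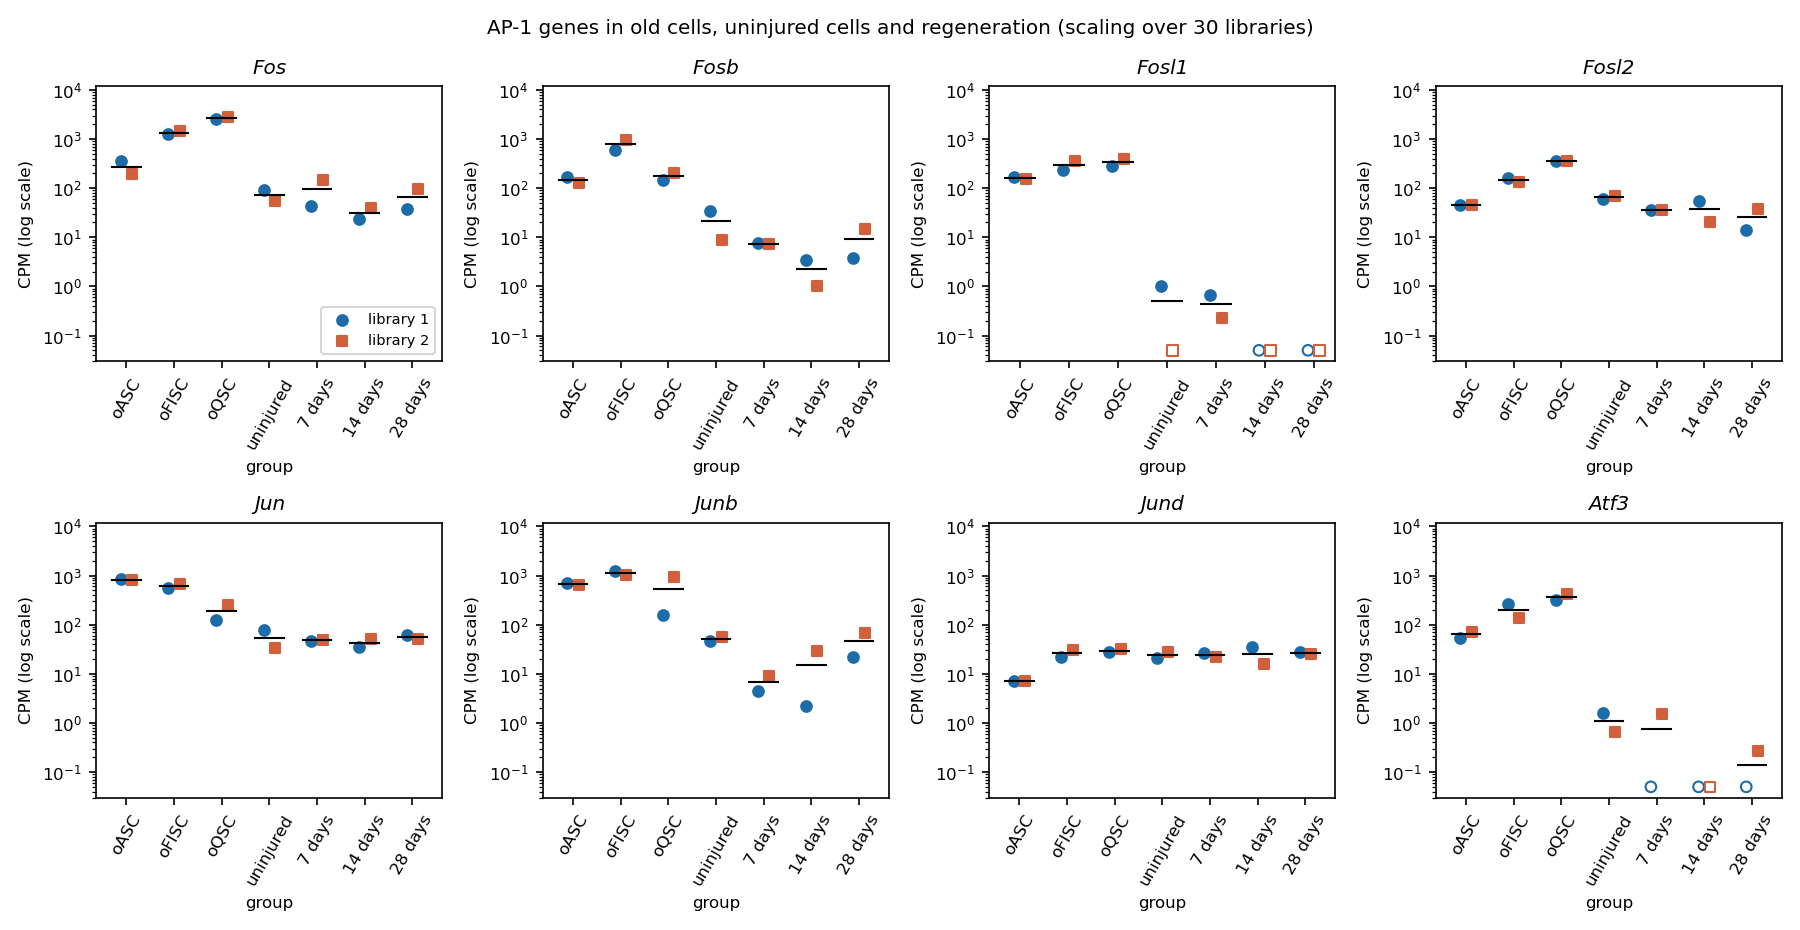
Level of each AP-1 gene (CPM scaled over all 30 libraries, log axis) in the 3 groups of old cells, uninjured cells and cells at 7, 14 and 28 days. Blue circles are library 1, orange squares library 2, bars the group means, and open symbols 0 counts. Both oQSC libraries lie above both uninjured ones for every gene but Jund, as for 41.3% of all genes. Fosl1 and Atf3 are near or at 0 from uninjured cells to 28 days.

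The oQSC libraries were set against the uninjured ones, both untreated per their labels, on the scale over all 30 libraries. Fos was at 2598 and 2842 CPM in oQSC and 89.6 and 54.1 CPM in uninjured cells. Atf3 was at 324 and 423 CPM in oQSC and 1.56 and 0.651 CPM in uninjured cells, and Fosl1 at 287 and 386 CPM in oQSC and 1.01 and 0 CPM in uninjured cells. Junb was at 160.4 and 927 CPM in oQSC and 47.6 and 55.1 CPM in uninjured cells. For these 4 genes each oQSC library was above both uninjured ones, as for 41.3% of all genes. By the test 6 of 8 members were higher in oQSC, all but Jun and Jund, when 12.3% of 28823 genes were. The log2 fold change was 5.24 ± 0.80 (SE, adjusted p = 8.15e-05) for Fos, 8.45 ± 1.53 (adjusted p = 0.000497) for Atf3 and 9.64 ± 2.58 (adjusted p = 0.0110) for Fosl1. It was 3.40 ± 0.93 (adjusted p = 0.0112) for Junb, 3.03 ± 1.06 (adjusted p = 0.0461) for Fosb and 2.44 ± 0.55 (adjusted p = 0.00275) for Fosl2, beside a median over all genes of 0.49 (0.36 under RLE). Jun was at 1.79 ± 0.68 (adjusted p = 0.0657) and Jund at 0.28 ± 0.50 (adjusted p = 0.716).

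Age, table and scaling cannot be told apart in this comparison, and the Pax7 and Myod1 levels given above differed with it. The summed level of 6 macrophage markers, none of them at 0 in oQSC, was 76.5 and 63.3 CPM in oQSC and 4.87 and 3.44 CPM in uninjured cells. That of 6 neutrophil markers, with Ly6g at 0 in both groups, was 12.7 and 11.1 CPM in oQSC and 1.19 and 1.63 CPM in uninjured cells. That of 6 myofibre markers was 106 and 108 CPM in oQSC and 10.1 and 4.00 CPM in uninjured cells. Their part was not tested. Fosb (adjusted p of 0.0775 and 0.317), Fosl1 (0.0526 and 0.123) and Junb (0.107 and 0.0857) were not called without uninjured library 1 or 2, and Fosb not without either oQSC library (0.104 and 0.157), nor under RLE (0.0570), and Junb not without oQSC library 2 (0.259). With ribosomal RNA and satellite repeat models left out, the median over all genes was 0.95, 72% of all calls in place of 57% were higher, and Jun was called too, 7 members in all. The share of all genes called in that fit is not given here.

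In oASC, taken 2.5 days after injury, and in the cells of the time course at 60 h, which is the same time, the members were compared on the scale over all 30 libraries. Jun was at 843 and 796 CPM in oASC and 86.9 and 114 CPM at 60 h, a log2 fold change of 3.03 ± 0.71 (SE, adjusted p = 0.0260), and it was the 1 of 8 members called higher, when 1.17% of all genes were. The call was lost without any 1 of the 4 libraries (adjusted p between 0.138 and 0.290). Fos was at 351 and 197 CPM in oASC and 45.3 and 138 CPM at 60 h (1.58 ± 0.68, adjusted p = 0.283). Atf3 was at 54.4 and 72.1 CPM in oASC and 4.34 and 12.4 CPM at 60 h (2.92 ± 1.17, adjusted p = 0.237) and Junb at 712 and 637 CPM in oASC and 152 and 267 CPM at 60 h (1.68 ± 0.87, adjusted p = 0.378). None of these 3 overlapped between the groups and none was called. Of all genes, 37.6% were apart and higher in oASC and 21.9% apart and lower. Fosl2 lay the other way, at 45.4 and 46.4 CPM in oASC and 93.9 and 131 CPM at 60 h (-1.29 ± 0.53, adjusted p = 0.247). The median over all genes was 0.25, or 0.08 under RLE and 0.63 with ribosomal RNA and repeats left out, and the share of calls that were higher was 53.2%, 37.4% and 83.8%. Pax7 averaged 10.4 ± 0.24 CPM in oASC and 152 ± 5.2 CPM at 60 h, and Myod1 782 ± 145 and 421 ± 5.3 CPM (SD, n = 2 each). Age, table, cell state and the fixation in place that the source labels name for 60 h but not for oASC cannot be told apart here either.

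The response to injury at this time was also set against an untreated group in both tables, as the difference of oASC and oQSC minus the difference of 60 h and uninjured cells. Of 8 members, 2 were called lower in this difference, Fosl2 at -3.74 ± 0.76 (log2, SE, adjusted p = 0.00455) and Fos at -3.67 ± 0.98 (adjusted p = 0.0252), beside 3.99% of all genes. Fosl2 was at 45.4 and 46.4 CPM in oASC and 360.2 and 350.2 CPM in oQSC, beside 93.9 and 131 CPM at 60 h and 60.6 and 70.0 CPM in uninjured cells, so the oASC libraries lay below those of oQSC, and the 60 h libraries above the uninjured ones without passing the test (0.78 ± 0.52, adjusted p = 0.269). Fos was at 351 and 197 CPM in oASC and 2598 and 2842 CPM in oQSC, beside 45.3 and 138 CPM at 60 h and 89.6 and 54.1 CPM in uninjured cells. Fosl2 was called in all 15 alternatives, Fos in 8 of 15, with an adjusted p of up to 0.177, and not without either uninjured library (0.0747 and 0.133), either oQSC library (0.0778 and 0.0719), either oASC library (0.0781 and 0.151) or library 2 of 60 h (0.177). Jun was at 1.24 ± 0.94 (adjusted p = 0.510) and Atf3 at -5.54 ± 1.70 (adjusted p = 0.0525). Labelled fixation differs between oASC and oQSC but not between 60 h and uninjured cells, so it cannot be told apart from age or table.

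All 14 partners of the family, other leucine zipper proteins that pair with it or bind related sites, were tested in the time course. At 1 h 3 were called higher and 1 lower, beside 6.57% and 3.64% of all genes, with a median log2 fold change of 1.68 and 0.16 over all genes. Mafk (log2 fold change 4.28 ± 0.88, adjusted p = 0.0117) and Maff (log2 fold change 4.00 ± 0.85, adjusted p = 0.0134), which encode small Maf proteins, were among the higher ones, and Atf7 (log2 fold change -1.62 ± 0.30, adjusted p = 0.00664), which encodes a relative of Atf2, was lower. At 60 h against 8 h, 6 of 14 were called lower, beside 11.2% of all genes, among them Mafk (log2 fold change -4.43 ± 0.89, adjusted p = 0.00448), Maff (log2 fold change -3.65 ± 0.84, adjusted p = 0.00897) and Bach2 (log2 fold change -3.10 ± 0.61, adjusted p = 0.00403), a repressor of the same class, with a list median of -2.76. In oASC against oQSC, 1 of 14 was called higher and 7 lower, beside 19% and 21.3% of all genes, with a list median of -0.70 beside -0.33 over all genes.

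Of the kinases and factors upstream of AP-1, 17 of 18 listed were tested. At 1 h 0 of 17 were called higher and 2 lower by edgeR, beside 6.57% and 3.64% of all genes, and the list median was -0.22, beside 0.16 over all genes. The lower ones were Mrtfa (log2 fold change -1.92 ± 0.42, adjusted p = 0.0150), a cofactor of Srf, and Creb1 (log2 fold change -1.34 ± 0.32, adjusted p = 0.0221), whose protein binds the cyclic AMP response element. At 8 h Map2k1, a kinase of the Erk pathway, was called higher (log2 fold change 3.01 ± 1.00, adjusted p = 0.0398), and Creb1 and Mrtfa lower, 1 and 2 of 17, beside 16.1% and 14% of all genes. In oFISC against oQSC, 4 were called higher and 7 lower of 17, beside 19.3% and 22.6% of all genes, with a list median of -0.36 beside 0.52 over all genes.

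Of 12 tested genes (of 13 listed) that limit AP-1, such as phosphatases of the kinases and proteins that destroy its transcripts, 3 were called higher and 1 lower at 0.5 h, 5 higher at 1 h and 6 higher and 1 lower at 8 h, with list medians of 1.19, 1.24 and 2.00. Of all genes, 6.88% were higher and 3.42% lower at 0.5 h, 6.57% higher at 1 h, and 16.1% higher and 14% lower at 8 h. Dusp2 (log2 fold change 5.28 ± 0.66, adjusted p = 0.00160) and Dusp1 (log2 fold change 4.28 ± 0.86, adjusted p = 0.0112), phosphatases of MAP kinases, were higher at 0.5 h, and Zfp36l1 (log2 fold change -1.59 ± 0.47, adjusted p = 0.0481), which encodes an RNA-destabilizing protein, was lower. At 60 h against uninjured cells 3 were called higher and 5 lower, beside 15.5% and 12.8% of all genes, with Nr3c1, the glucocorticoid receptor, among the lower ones (log2 fold change -2.75 ± 0.34, adjusted p = 0.000250). Dusp1 averaged 4429.7 ± 214 CPM in oQSC and 61.4 ± 19.5 CPM in uninjured cells (SD, n = 2 each) on the scale over all 30 libraries, with log2 fold change 6.17 ± 0.87, adjusted p = 3.71e-05. It had the larger fold of 2 calls higher in that comparison, where 1 was lower, against 12.3% and 9.31% of all genes. In oASC against oQSC 2 of 12 were called higher and 5 lower, against 19% and 21.3% of all genes, with Dusp1 among the lower ones (log2 fold change -4.73 ± 0.34, adjusted p = 2.41e-05).

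Of 18 known AP-1 targets, all tested, 8 were called higher at 0.5 h, 6 at 1 h and 12 at 8 h, where 1 was lower, with list medians of 5.64, 5.07 and 5.98 beside 0.24, 0.16 and 0.00 over all genes. The shares of all genes called higher were 6.88%, 6.57% and 16.1%, and 14% were lower at 8 h. Examples at 8 h were Sphk1 (log2 fold change 8.85 ± 1.14, adjusted p = 0.00119), a sphingosine kinase, Hbegf (log2 fold change 6.57 ± 1.07, adjusted p = 0.00289), a growth factor, and Mt1 (log2 fold change 6.46 ± 1.00, adjusted p = 0.00240), a metallothionein. At 60 h against 8 h, 9 were called lower and 2 higher, beside 11.2% and 12.5% of all genes, and the 2 were Spp1 (log2 fold change 6.33 ± 1.01, adjusted p = 0.00133), or osteopontin, and Ccnd1 (log2 fold change 3.85 ± 0.68, adjusted p = 0.00218), or cyclin D1. In oQSC against uninjured cells 14 of 18 were called higher and 1 lower, beside 12.3% and 9.31% of all genes, with a list median of 5.64 beside 0.49, and Mt1 averaged 5881 ± 151 CPM in oQSC and 22.5 ± 4.51 CPM in uninjured cells (SD, n = 2 each). In oASC against oQSC, 9 were called lower, such as Sphk1 (log2 fold change -3.58 ± 0.28, adjusted p = 3.39e-05), and 5 higher, such as Spp1 (log2 fold change 5.76 ± 0.35, adjusted p = 1.18e-05), beside 21.3% and 19% of all genes. In the difference of the responses in old cells and in the time course, 6 targets were called lower and 1 higher, beside 3.99% and 3.29% of all genes. These lists were chosen with earlier results of these data known, and many of the targets are also known to respond to other factors.

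**Figure D5:**
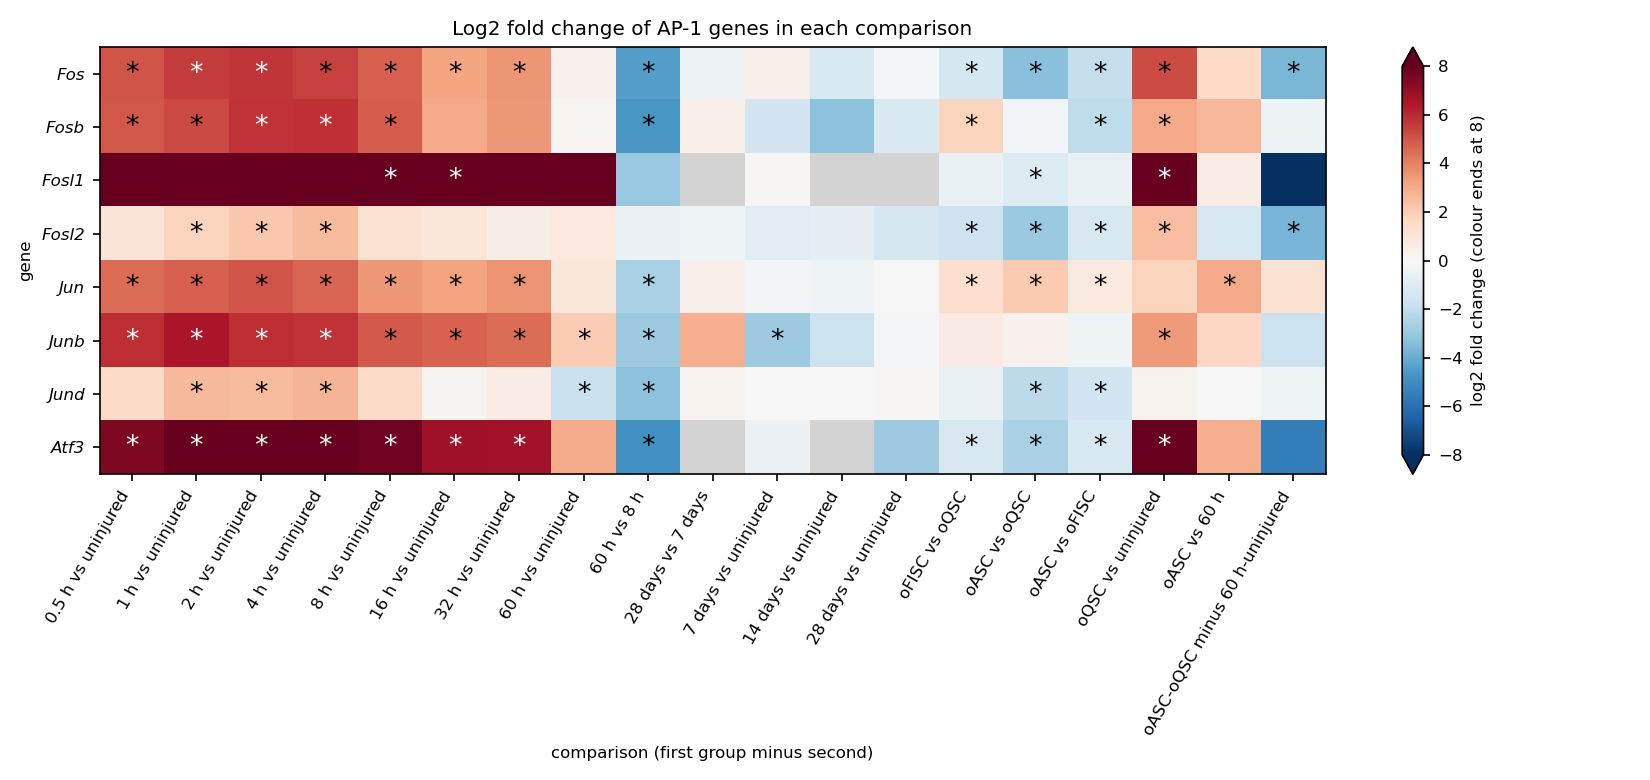
Log2 fold change of the 8 AP-1 genes (rows) in 19 comparisons (columns, first-named group minus second), red for higher and blue for lower in the first-named group, with colours ending at 8. A star marks an adjusted p under 0.05, and grey cells have no fold change because a group had 0 counts or the gene was filtered. Red stars fill the columns from 0.5 to 8 h for Fos, Fosb, Jun, Junb and Atf3, blue stars the column of 60 h against 8 h, and Jun alone is red in oASC against oQSC with a star.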

How the data were processed

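RNA was profiled in 30 libraries of satellite cells, 2 in each of 15 groups, by SMART-Seq v4 and Tn5 tagmentation of polyA RNA with paired reads of 100 cycles, per the labels' protocols. The deposited values are whole-number read counts per gene in 3 tables (time course, regeneration, old cells), made by the authors. Trimmomatic 0.36, HISAT2 2.1.0, SAMtools 1.3 and StringTie 1.3.3 and the build mm10 are named in the submitters' processing notes, while neither annotation release nor strand use is given in the sources used here.

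Counts were tested with edgeR 4.0.16 (R 4.3.3), by its quasi-likelihood F test on group means after a filter on low counts (minimum count 10, minimum total 15) and TMM scaling, in 4 fits: 18 libraries of the time course (22479 genes), 6 of regeneration (16954), 6 of old cells (30099), and all 30 over 55154 shared identifiers (28823 tested) for comparisons between tables. Calls in the 20 comparisons needed p-values below 0.05 after Benjamini-Hochberg adjustment across every tested gene; standard errors (SE) were taken from the fold change and its F. The scripts were tested on simulated data.

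The members, the 4 lists of pathway genes and the 10 marker lists were chosen with earlier results of these data known. Genes named from lists were the called ones with the smallest adjusted p, up to 4 a list and comparison, or a called gene named so in another comparison, and some genes that this rule names are not reported here; likeness used Pearson r of log2 CPM (prior count 2). Results were also computed with DESeq2 1.42.0, with its RLE size factors in edgeR, with no filter, a replicate block, 5 ribosomal RNA models left out, 13 ribosomal RNA and repeat models left out (chosen after seeing the data), the compared libraries alone, and each library left out. Libraries held 9182407 to 57441790 counts, so counting error is small beside the spread between libraries except near 0.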

Additional observations from a re-analysis of the deposited data

Results flagged for a closer look

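The change with injury of 2 genes differed between old cells and the time course by a test of the difference itself (edgeR, all 30 libraries). For Fosl2 the difference of oASC and oQSC minus the difference of 60 h and uninjured cells was -3.74 on the log2 scale (adjusted p = 0.00455). Taken singly, the log2 difference of Fosl2 was -2.96 ± 0.20 (SE) in old cells and 0.78 ± 0.52 in the time course, of which the first alone passed its test. For Fos the difference was -3.67 (adjusted p = 0.0252), from -3.32 ± 0.33 in old cells and 0.34 ± 0.68 in the time course. Fosl2 was called in all 15 alternatives but Fos in only 8 of 15, so the call of Fos depends on single libraries. Age, table, the state of the untreated cells and the labelled fixation, not named for oASC, cannot be told apart in either.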

How the results depend on the processing

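With 2 libraries a group, single calls depend on single libraries, and no called gene changed direction in any alternative. Over all members and comparisons, changes of setting other than leaving out a library left 841 results with the same direction and on the same side of the threshold, put 66 past it, took 21 below it and turned 7, and leaving out 1 library gave 571, 7, 159 and 39. The setting added after seeing the data, without ribosomal RNA and repeat models, gave 154, 1, 1 and 2. Of 150 log2 values, 28 changed sign or went to 0 in some alternative, 0 of them called as reported and 6 called in another alternative. With 1 library left out, Fosb at 16 h ran from -0.73 (without library 1) to 4.33. Junb ran from -0.14 to 2.38 in oFISC and from -0.44 to 2.08 in oASC, each against oQSC (lowest without oQSC library 1, highest without oQSC library 2), and from -2.48 to 0.042 in the difference of responses. Fosl1 at 14 and at 28 days ran from -7.77, a fitted value that rests on the prior count, to 0 without uninjured library 1, where no counts were left. Leaving out 1 library in turn also gave these ranges across 0, for values called in no alternative. At 16 h it gave Jund from -0.42 to 0.69. At 32 h it gave Jund from -0.34 to 1.14. At 60 h it gave Fosb from -0.93 to 1.46 and Fos from -0.66 to 0.95. At 28 against 7 days it gave Fos from -1.19 to 0.72, Fosl2 from -1.17 to 0.17 and Fosb from -0.84 to 1.07. In oASC against oQSC it gave Fosb from -0.41 to 0.040. At 7 days it gave Jun from -0.82 to 0.41, Atf3 from -7.83 to 0.36, Fos from -0.87 to 0.89, Fosl1 from -1.31 to 6.45 and Jund from -0.33 to 0.099. At 14 days it gave Jun from -1.05 to 0.23 and Jund from -0.80 to 0.31. At 28 days it gave Fos from -0.99 to 0.32, Fosb from -2.59 to 0.0020, Jund from -0.13 to 0.29, Jun from -0.50 to 0.74 and Junb from -1.26 to 0.35. In oASC against 60 h it gave Jund from -0.071 to 0.051. In the difference of responses it gave Fosb from -1.69 to 0.74. Fosl1 at 7 days was at -0.060 under RLE, -0.33 by DESeq2 and -0.013 without 5 ribosomal RNA models. Jund at 14 days was at -0.11 under RLE, -0.11 by DESeq2, -0.075 without those models, -0.047 without ribosomal RNA and repeat models and -0.18 in a fit of the compared libraries alone. Jund in oASC against 60 h was at 0.34 without ribosomal RNA and repeat models. The cause of these shifts was not tested.

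The count of members called at 60 h against uninjured cells, 2, was 4 by DESeq2, 4 with no filter, 1 with the replicate block (Junb) and 5 in a fit of the compared libraries alone. Those libraries alone also gave 0 at 0.5 h, 4 at 4 h, 1 at 28 against 7 days, 2 at 7 days, 5 in oASC against 60 h and 4 in the difference of responses. With no filter the count was 1 at 28 against 7 days, 2 at 7 days, 5 at 14 days, 2 at 28 days, 5 in oASC against 60 h and 5 in the difference of responses. DESeq2 gave 1 at 28 against 7 days, 2 at 14 days and 4 in the difference of responses, and RLE gave 1 at 14 days (Fosb). The share of all genes called under each of these settings, or with 1 library left out, is not given here. These counts therefore show how the calls shift, not whether the members stand out from all genes.

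With 1 library left out, the count ran from 2 to 6 at 0.5 h, 2 to 5 at 1 h, 2 to 6 at 2 h, 2 to 6 at 4 h, 2 to 4 at 8 h, 1 to 5 at 16 h, 1 to 4 at 32 h, 0 to 1 at 60 h, 2 to 3 at 60 against 8 h and 3 to 7 for any change. It was 0 at 28 against 7 days, 0 at 7 days, 0 to 1 at 14 days and 0 at 28 days. It ran from 4 to 5 in oFISC against oQSC, 5 to 6 in oASC against oQSC, 4 to 5 in oASC against oFISC, 3 to 5 in oQSC against uninjured cells and 1 to 2 in the difference of responses, and was 0 in oASC against 60 h. In the test for any change Fos, Junb and Jund were called in all 24 alternatives, Jun in 23, Atf3 in 20, Fosb in 15 and Fosl2 in 14.

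Libraries with the same replicate number did not deviate in a common direction over all groups. Over 36 pairs of groups the correlation of their deviations ran from -0.707 to 0.645 with a median of -0.015, and was over 0.1 in 6. In single pairs of groups they thus deviated alike or in opposite directions. The replicate block ended the calls of Fosb at 0.5 h (adjusted p = 0.0599), Fosl2 at 1 h (0.0677), Fosl1 at 16 h (0.0506), Jund at 60 h (0.0526) and Fosb for any change (0.0570).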
